A study of Homo sapiens with 9 samples.

Results

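The cytosolic ribosomal protein genes were taken here as the probe sets with a single gene symbol of the form RPL or RPS and a number, together with RPLP1 and RPLP2, without the RPS6K kinases and the pseudogenes. They numbered 77 genes read by 212 probe sets, out of 18239 genes and 45259 probe sets with a single symbol and 49386 probe sets on the array. Of these, 67 were core genes (192 probe sets), 43 of the large and 24 of the small ribosomal subunit, and 10 were paralogs (20 probe sets): RPL3L, RPL7L1, RPL10L, RPL22L1, RPL26L1, RPL36AL, RPL39L, RPS27L, RPS4Y1 and RPS4Y2. RPLP0, RPSA and RPS27A, which the rule would also take, were not analysed here.

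The samples were HEK293T cells, a human embryonic kidney line that carries the SV40 large T antigen, grown in one medium and measured on Affymetrix U219 arrays. The study varied BRD1, a scaffold protein of histone acetyltransferase complexes. There was 1 array of untreated cells, 1 of a line stably expressing the tagged short isoform (BRD1-S) and 1 of a line stably expressing the tagged long isoform (BRD1-L), which the labels also call episomal. Cells transfected with BRD1 siRNA gave 3 arrays and cells with control siRNA (mock in the labels) another 3. The siRNA arrays pair by kit and number as Qiagen, Dharmacon 1 and Dharmacon 2. Each overexpressing line and the untreated cells stand on 1 array, so their differences have no replicate check and carry no test. The paper speaks of several knockdown experiments, while the labels only number the arrays, so p-values measure the spread between these arrays.

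A cytosolic ribosome is built from ribosomal RNA and a copy of nearly every core protein, and the messages for these proteins are among the most abundant of a growing cell. Most of them begin with a pyrimidine-rich stretch, the 5′ terminal oligopyrimidine (TOP) motif, through which mTOR signalling controls their translation. The paralogs stand in for, or compete with, a core protein. RPL22L1 can replace RPL22, which in mouse represses the Rpl22l1 message. RPL39L is best known from testis and from cancer cells and resembles RPL39 at the peptide exit tunnel. RPS27L resembles RPS27 and is a transcriptional target of p53. The study also lists the RPL22L1 protein as a partner of BRD1-L, though not of BRD1-S and only in the class seen in the fewest repeats. Its own message was therefore of interest here.

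The sequences around the annotated start of transcription show how core genes and paralogs differ at the place where the TOP motif lies. The 30 bases given are 15 before and 15 from the start, on the transcribed strand and 5′ to 3′, from RefSeq on GRCh38.p14, with the longest unbroken run of C and T that reaches within 10 bases of the start in capitals. RPL22, RPS27, RPL26 and RPL36A are each followed by their paralog, and RPL7L1 and RPL39 stand alone.
RPL22 (chr1:6199581-6199610, minus strand): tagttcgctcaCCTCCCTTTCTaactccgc
RPL22L1 (chr3:170870181-170870210, minus strand): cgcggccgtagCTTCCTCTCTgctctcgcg
RPS27 (chr1:153990747-153990776, plus strand): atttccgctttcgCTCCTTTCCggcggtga
RPS27L (chr15:63157463-63157492, minus strand): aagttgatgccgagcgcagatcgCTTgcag
RPL26 (chr17:8383179-8383208, minus strand): aagcagcgtgtagTTCTCTTCCCTTTTgcg
RPL26L1 (chr5:172958714-172958743, plus strand): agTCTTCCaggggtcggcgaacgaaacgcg
RPL36A (chrX:101390996-101391025, plus strand): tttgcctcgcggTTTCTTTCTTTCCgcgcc
RPL36AL (chr14:49620612-49620641, minus strand): ctgTTTCTTCCCTTTCCTgttaggcgagag
RPL7L1 (chr6:42879601-42879630, plus strand): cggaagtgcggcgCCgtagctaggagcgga
RPL39 (chrX:119791616-119791645, minus strand): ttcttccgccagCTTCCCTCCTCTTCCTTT

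Promoter entries matched 65 of the 77 genes by symbol. The run was 8 bases or longer in 48 of 57 core genes (84.2%) and in 2887 of 14492 genes on the array with an entry (19.9%), counted on the transcribed strand only and with the longest run where a gene has several annotated starts. The median run was 12 bases in the core genes against 5 over all those genes. Of 8 paralogs with an entry 3 had a run of 8 or more, among them RPL22L1 with 10 bases and RPL36AL with 15. RPS27L had 3 bases, RPL26L1 6 and RPL7L1 2, whereas RPS27 had 9 and RPL26 14. RPL22 (11 bases) and RPL22L1 thus both start in a pyrimidine run, while RPS27L does not share the run of RPS27. For comparison, 11 of 68 genes of mitochondrial ribosomal proteins, which serve the separate ribosome of the mitochondrion, had such a run (16.2%). A run of pyrimidines is a description of the letters in this window and not a mapped start or a tested TOP motif.

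**Figure D1:**
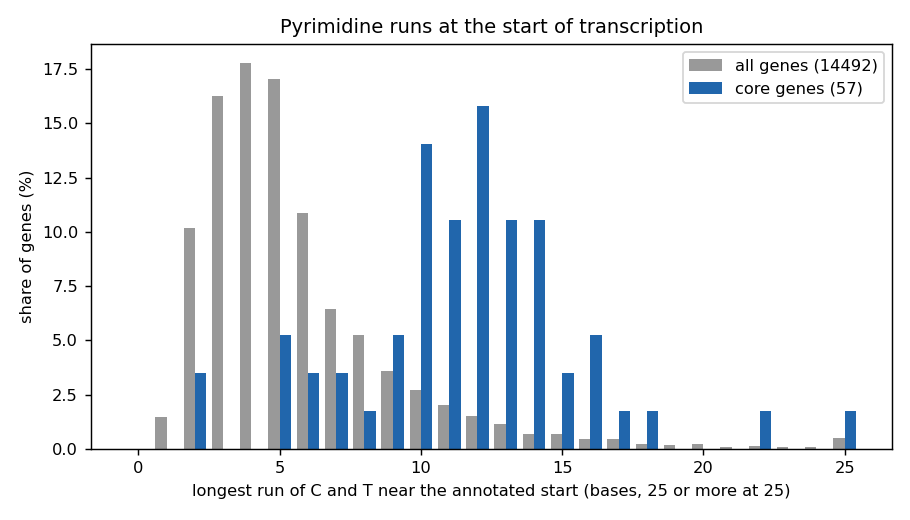
The bars give the share of genes (vertical axis, %) by the longest run of C and T near the annotated start (horizontal axis, bases) for all 14492 genes with an entry (grey) and 57 core ribosomal protein genes (blue). The core genes centre on 12 bases and all genes on 5.

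Labels were checked before the comparisons. BRD1, a mean over its probe sets, was at 7.61 in untreated cells, 9.27 in BRD1-S and 9.30 in BRD1-L, and the 3 BRD1 siRNA arrays (6.75 to 7.07) all lay below the 3 control siRNA arrays (7.75 to 7.82). Of 5 genes listed as expressed in HEK293T, VIM (12.91 to 13.50) and LIN28B (8.55 to 9.11) were read well above the median of all values on every array, but NEFH was at 3.42 to 4.55, as low as the markers of other cells. The 8 markers of blood, liver, epithelial, glial and stromal cells were at 4.73 or below. On the BRD1-L array NEFL and NEFM, the other neurofilament genes of that list, were at 6.67 and 6.0 against 9.99 to 10.63 and 9.07 to 10.47 on the other 8. The Qiagen BRD1 siRNA array stood apart in its control probe sets: its mean over the 18S ribosomal RNA probe sets was 11.47 against 12.50 to 12.92 elsewhere, and its ACTB 3′ minus 5′ difference was 1.30 against 0.72 to 0.91. The control siRNA arrays also differed among themselves: any probe set past 1.5-fold (0.585 on the log2 scale) was found for 1.23% of genes between the Qiagen and Dharmacon 1 controls, but for 11.5% and 12.4% between the Dharmacon 2 control and those 2 controls.

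The core ribosomal protein genes were nearly flat across all 9 arrays. Values are log2 intensities throughout. The brightest probe set of each gene had a mean of 13 or more for 61 of 67 core genes, near the top of the scale. The SD of these probe sets over the 9 arrays, which span overexpression, knockdown and controls, had a median of 0.0396, against 0.152 for the brightest probe sets of all genes. Other bright genes were flat too: 102 genes outside the family whose brightest probe set averaged 13 or more had a median SD of 0.0599. Read on its brightest probe set alone, not one of the 163 genes at this level, members and others, passed 1.5-fold in any of the 5 comparisons, though some passed on other probe sets, described below. The array's response near its upper end was not tested, so a change of these messages could be compressed there.

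Named core proteins show how narrow this range is. RPL28, a large-subunit protein, varied by 0.047 between its lowest and highest array on its brightest probe set, the smallest SD of the core genes (0.0145). RPL36A varied by 0.060, and RPS19, the small-subunit protein mutated in Diamond-Blackfan anaemia, by 0.055. RPS3, at the mRNA entry of the small subunit, varied by 0.072 and RPS6, the substrate of S6 kinases, by 0.081. RPL5 and RPL11, which bind MDM2 when ribosome assembly fails, varied by 0.148 and 0.123. The stalk proteins RPLP1 and RPLP2 varied by 0.110 and 0.124, RPL41, the shortest of the family, by 0.084 and RPL10, a late-joining protein of the large subunit, by 0.224. The widest ranges of all core genes were 1.08 for RPL27A, whose only probe set averaged 8.50, and 0.41 for RPL35A, whose brightest averaged 12.03.

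**Figure D2:**
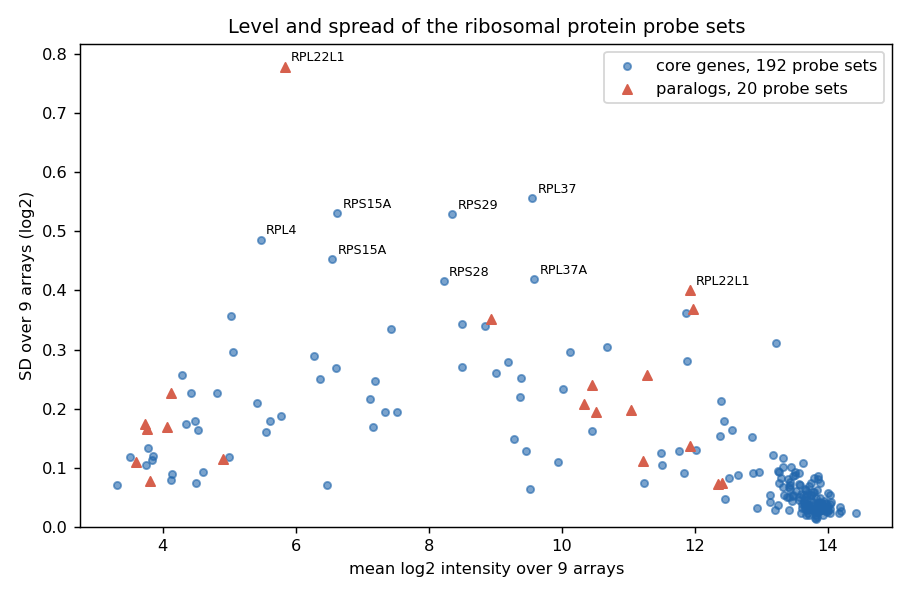
Each point is a probe set, with its mean log2 intensity over 9 arrays (horizontal axis) and its SD over the same arrays (vertical axis, log2), for 192 core (blue) and 20 paralog (red) probe sets. The bright core probe sets crowd at the lower right, and the dimmer probe set of RPL22L1 varies most.

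Where core genes did pass 1.5-fold, they did so on dimmer probe sets. None of the 130 core probe sets at a mean of 12 or more passed in any comparison, against 11 of 42 from the median of all values (5.47) to 12 and 2 of 20 below it. The share of all probe sets at these levels that passed was not counted, so these counts are not read as particular to the family. Of the core probe sets, 134 are of the kinds whose probes can match several transcripts, and 30 core genes have only such probe sets, so the signal of near-identical copies and of the many ribosomal protein pseudogenes cannot be told apart from the gene itself there. Which transcript a dimmer probe set reads was not tested.

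In BRD1-S cells the core genes had a median difference of 0.00 from untreated cells (quartiles -0.03 and 0.03, all genes 0.00). Only RPS28, a small-subunit protein near the mRNA exit, had a probe set higher past 1.5-fold, 1 of 67 core genes (1.49%) against 2.08% of all genes, and no core gene was lower, against 0.647%. The gene means of BRD1-S lay above the other 8 arrays for 3 core genes and below them for 5, while 6.96% and 7.41% of all genes did so. No paralog stood outside the other 8 arrays in BRD1-S.

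In BRD1-L cells the core median was -0.01 (quartiles -0.07 and 0.03), and the genes past 1.5-fold lay on both sides. RPS28 and RPS29 had a probe set higher (2 of 67, 2.99%, all genes 6.21%) and RPL27A and RPS23 one lower (2.99%, all genes 4.22%). RPL22L1 and RPL39L, 2 of 10 paralogs, were higher as well. The gene means on the BRD1-L array lay above the other 8 for 3 core genes against 17.4% of all genes, and below them for 15 of 67 core genes (22.4%) against 16.4% of all genes. Of those 15 the gap to the nearest other array was widest for RPL22, at 0.39, and at most 0.15 for the rest.

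RPL22L1 was the member that differed most between arrays. Its brighter probe set was at 12.86 in BRD1-L, against 11.84 in untreated and 11.68 in BRD1-S cells, at 11.54, 11.53 and 12.04 on the Qiagen, Dharmacon 1 and Dharmacon 2 controls, and at 11.87, 12.05 and 11.99 on the BRD1 siRNA arrays in the same order. The dimmer probe set was at 7.33 in BRD1-L, 5.86 in untreated and 5.58 in BRD1-S cells, 4.89, 4.67 and 6.21 on the controls and 5.86, 6.02 and 6.16 on the BRD1 siRNA arrays. On both probe sets BRD1-L was the highest of the 9 arrays and the Qiagen and Dharmacon 1 controls were the lowest. The BRD1-L difference from untreated cells was 1.02 on the brighter and 1.47 on the dimmer probe set. It stayed at 0.98 on the gene mean when the control siRNA array nearest to BRD1-L, Dharmacon 2, took the place of the untreated array.

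RPL22, the core partner, was on the other side in BRD1-L cells. One of its dimmer probe sets was at 11.24 in BRD1-L against 11.80 in untreated and 11.82 in BRD1-S cells, 11.94, 11.96 and 11.92 on the controls and 12.17, 12.22 and 11.93 on the BRD1 siRNA arrays. The third probe set gave 11.09 in BRD1-L and 11.60 to 12.31 elsewhere, and the brightest 13.60 in BRD1-L and 13.71 to 13.84 elsewhere. On all 3 probe sets BRD1-L was thus the lowest of the 9 arrays, by -0.55, -0.57 and -0.12 against untreated cells, each short of 1.5-fold. All 3 are of the kinds whose probes can match several transcripts, and whether they read RPL22 alone was not tested. The difference of RPL22L1 minus RPL22 was 1.66 larger in BRD1-L than in untreated cells, against -0.20 in BRD1-S. Both values rest on single arrays.

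RPL39L was read by 1 probe set, at 9.67 in BRD1-L, 9.01 in untreated and 9.11 in BRD1-S cells, 8.75, 8.71 and 9.02 on the controls and 8.63, 8.48 and 9.08 on the BRD1 siRNA arrays. BRD1-L was again the highest array, 0.66 above untreated cells. RPL39, its partner at the exit tunnel, did not follow: its probe sets ranged from 13.80 to 13.93 and from 12.76 to 13.04 over the 9 arrays. RPL26L1, a close copy of RPL26, was lowest in BRD1-L at 11.67 against 11.84 to 12.11 elsewhere. RPL36AL, a retrocopy of RPL36A that is expressed in many tissues, ranged from 12.28 to 12.45 on the gene mean.

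**Figure D3:**
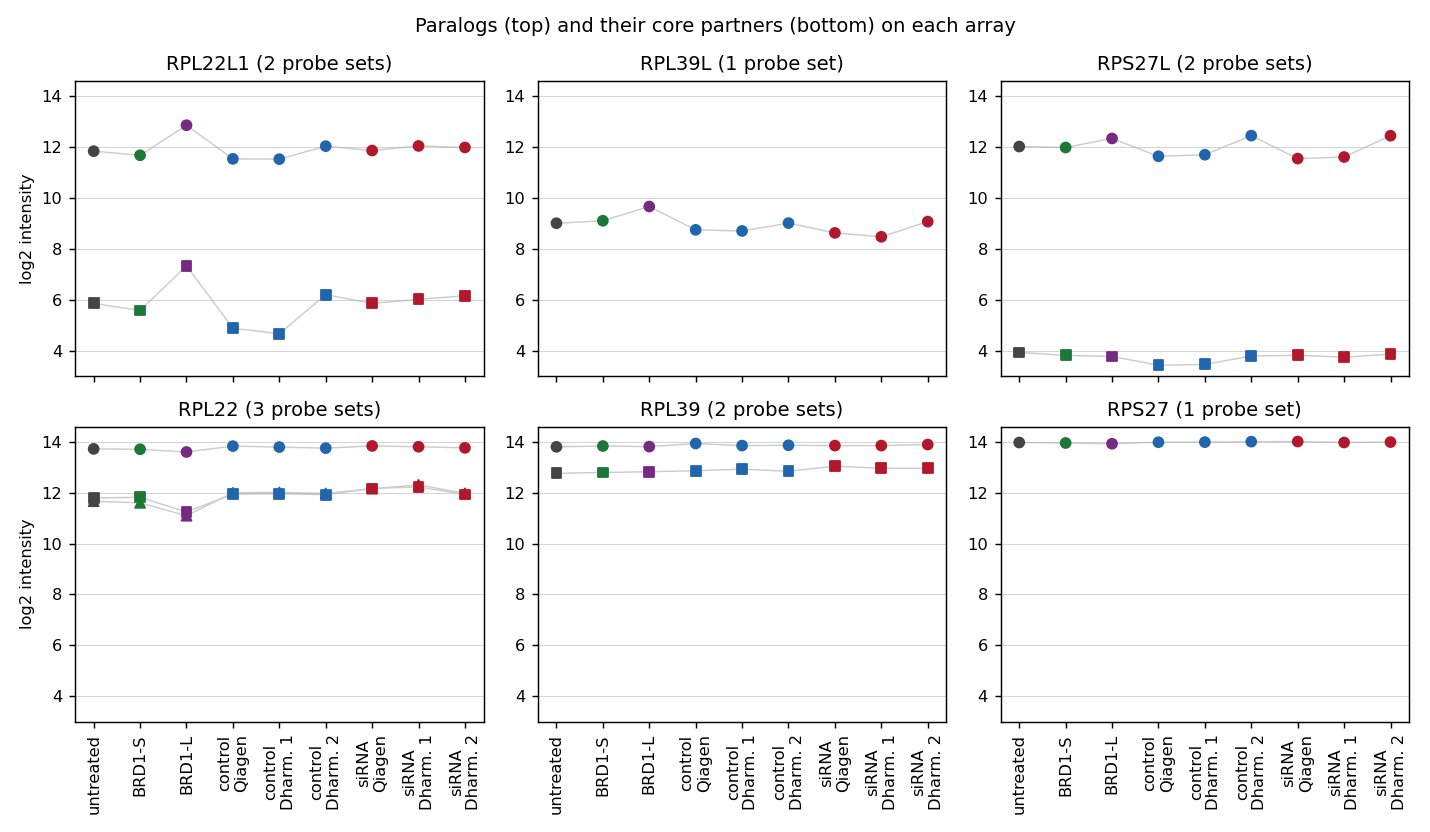
Log2 intensity (vertical axis) of every probe set of RPL22L1, RPL39L and RPS27L (top) and of RPL22, RPL39 and RPS27 (bottom) on each of 9 arrays (horizontal axis), with 1 point per array, coloured by group, and 1 line per probe set. RPL22L1 peaks in BRD1-L at 12.86 and 7.33, where the dimmer RPL22 probe sets are lowest at 11.24 and 11.09.

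RPS27L did not separate BRD1 siRNA from control siRNA but set the Dharmacon 2 pair apart from the other pairs. Its bright probe set was at 12.45 on both Dharmacon 2 arrays, at 11.64 and 11.70 on the Qiagen and Dharmacon 1 controls and at 11.55 and 11.61 on their BRD1 siRNA arrays. Untreated, BRD1-S and BRD1-L cells lay between, at 12.03, 11.99 and 12.34. RPS27, its partner, stayed between 13.92 and 14.01 on all arrays. The p53 target CDKN1A, an inhibitor of cyclin-dependent kinases, was also high on both Dharmacon 2 arrays, at 9.18 and 8.95, and at 6.41 to 7.04 on the other 4 siRNA arrays. Whether the state of the cultures differed between the pairs was not tested. CDKN1A in untreated, BRD1-S and BRD1-L cells was at 7.63, 8.45 and 9.34.

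**Figure D4:**
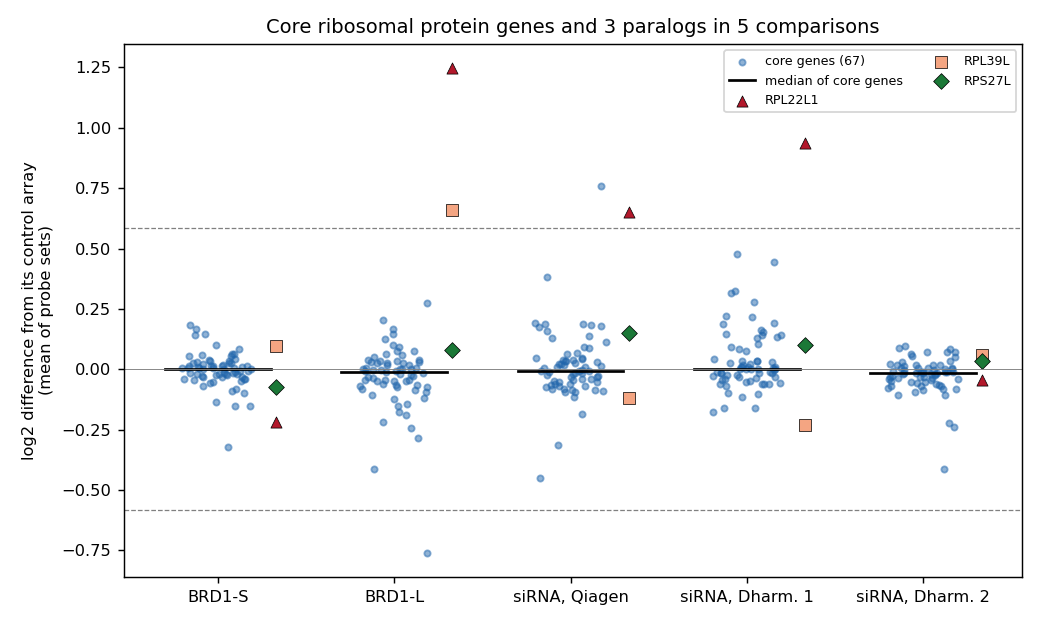
Log2 differences between each array and its control (vertical axis, mean of the probe sets of a gene) in 5 comparisons (horizontal axis) for 67 core genes (blue points, black line at the median) and for RPL22L1, RPL39L and RPS27L; the dashed lines mark 1.5-fold. The core medians lie between -0.02 and 0.00, and RPL22L1 reaches 1.25 in BRD1-L.

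In the siRNA pairs the core medians stayed at -0.01 (Qiagen), 0.00 (Dharmacon 1) and -0.02 (Dharmacon 2). In the Qiagen pair 4 core genes had a probe set higher (5.97%, all genes 6.89%), namely RPL27A, RPL37A, RPS15A and RPS28, and RPL4 one lower (1.49%, all genes 6.73%). In the Dharmacon 1 pair RPL37, RPL37A, RPS15A, RPS20, RPS3A and RPS4X had a probe set higher (6 of 67, 8.96%, all genes 6.79%) and none was lower, against 3.44%. In the Dharmacon 2 pair no core gene or paralog passed either way, against 1.31% and 1.83% of all genes. RPL22L1 was higher past 1.5-fold in the Qiagen and Dharmacon 1 pairs, and RPL7L1, a relative of RPL7, was lower in the Qiagen pair.

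RPS15A, a protein of the small subunit, carried the widest of these differences. One of its dim probe sets was at 6.91, 7.32 and 6.96 on the Qiagen, Dharmacon 1 and Dharmacon 2 BRD1 siRNA arrays and at 5.74, 5.86 and 6.87 on their controls, and at 6.34, 6.84 and 6.74 in untreated, BRD1-S and BRD1-L cells. The Qiagen and Dharmacon 1 controls were the lowest of the 9 arrays, and the pair differences were 1.17, 1.46 and 0.09. On the brightest probe set of the same gene all 9 arrays lay between 13.97 and 14.06.

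RPL37A, a zinc-finger protein of the large subunit, gave the same picture. One probe set was at 10.16, 10.28 and 9.63 on the BRD1 siRNA arrays and 8.99, 9.21 and 9.68 on the controls, against 14.11 to 14.20 over all 9 arrays on its brightest. RPL4, a large-subunit protein that lines the exit tunnel, had 1 dim probe set at 4.72, 5.73 and 4.96 on the BRD1 siRNA arrays and 5.92, 6.14 and 4.94 on the controls. The Dharmacon 2 control thus lay close to the Dharmacon 2 BRD1 siRNA array on these probe sets. The Dharmacon 2 and Qiagen controls also differed, with no BRD1 siRNA in either culture. RPL31, RPL37A and RPS15A had a probe set higher past 1.5-fold on the Dharmacon 2 control (3 of 67 core genes, 4.48%). RPL4 had one lower (1.49%), and 11.5% of all genes passed either way. Of the paralogs, RPL22L1 and RPS27L (2 of 10) had a probe set higher there.

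RPL27A, a protein of the large subunit, was at 9.08, 8.53 and 8.0 on the BRD1 siRNA arrays and at 8.33, 8.44 and 8.41 on the controls, with BRD1-L at 8.17, BRD1-S at 8.61 and untreated cells at 8.93. The groups overlap, with pair differences of 0.76, 0.09 and -0.41. The Qiagen value falls on the array whose ribosomal RNA and ACTB control probe sets stood apart, and the part of those in this result was not tested. RPS28 on its varying probe set was lowest in untreated cells, at 7.42, with 8.04 in BRD1-S, 8.14 in BRD1-L and 8.0 to 8.86 on the siRNA and control arrays. RPS29, a zinc-binding protein of the small subunit, was likewise lowest in untreated cells, at 7.28, with 7.84 and 7.99 in BRD1-S and BRD1-L and 8.50 to 8.78 elsewhere. For both genes the untreated array was the lowest of the 9. The overexpressing lines lay below every siRNA and control array for RPS29, but within the range of those arrays for RPS28.

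RPS23, a small-subunit protein at the decoding site, shows the opposite placement. Its varying probe set was highest in untreated cells, at 11.15, with 10.97 in BRD1-S and 10.37 in BRD1-L, 10.28, 10.30 and 10.80 on the controls and 10.78, 10.77 and 10.72 on the BRD1 siRNA arrays. The BRD1-L value therefore lay within the range of the controls. RPL7L1 was read by 7 probe sets, and its gene mean was 9.53, 9.89 and 9.70 on the BRD1 siRNA arrays and 10.08, 10.05 and 9.67 on the controls. Its brightest probe set was at 10.71 on the Qiagen BRD1 siRNA array and 11.10 to 11.55 on the other 8.

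**Figure D5:**
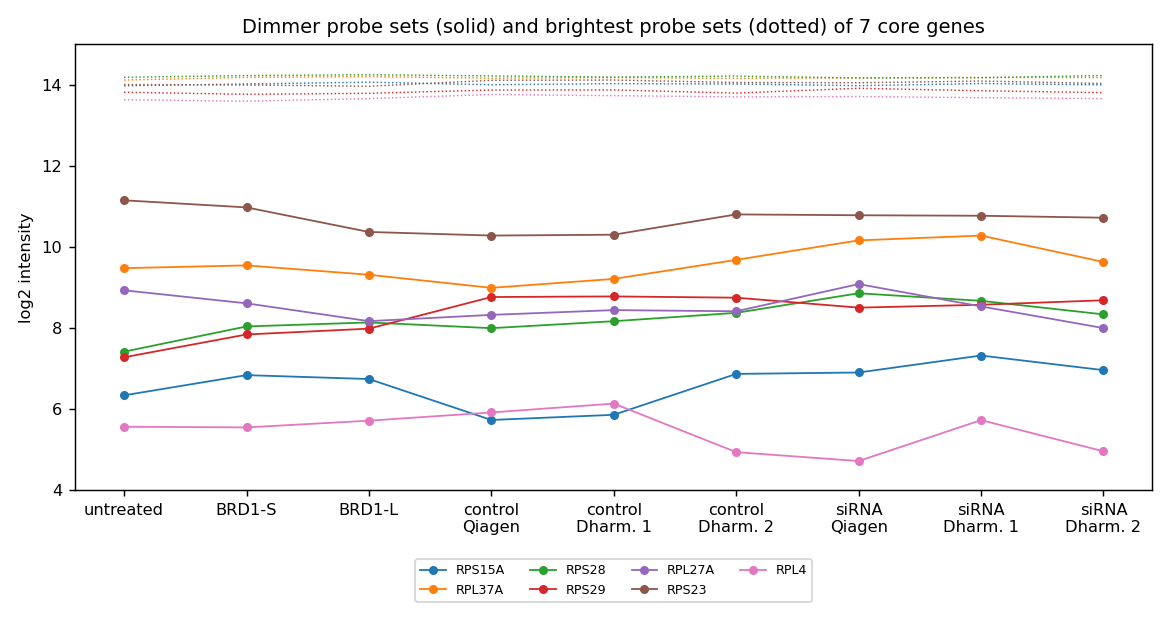
Log2 intensity (vertical axis) on each of 9 arrays (horizontal axis) of 1 dimmer probe set (solid) of 7 core genes that passed 1.5-fold, and of the brightest probe set of the same gene (dotted, same colour; RPL27A has only 1). The dotted lines are flat near 14, while RPS15A is lowest on the Qiagen and Dharmacon 1 controls, at 5.74 and 5.86.

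With the 3 BRD1 siRNA and 3 control siRNA arrays fitted together in limma with the kit as covariate, no member was called at a Benjamini-Hochberg adjusted p of 0.05, and neither was any of the 18239 genes (0%). The smallest adjusted p of all genes was 0.869, that of BRD1 itself included, at a difference of -0.86 ± 0.085 (SE) and an unadjusted limma p of 5.6e-05. At an unadjusted limma p of 0.05, 2.01% of all genes were higher and 2.89% lower, and RPS15A was the only core gene past it. Its limma difference was 0.31 ± 0.098 (SE), with an unadjusted p of 0.0199 and an adjusted p of 0.869. No core gene was lower at that level. The core differences had a median of -0.01 and ran from -0.21 (RPL4) to 0.31, and 29 of 67 were above 0.

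On gene means, all 3 BRD1 siRNA arrays lay above all 3 controls for 4 core genes (RPL37A, RPL39, RPLP2 and RPS15A; 5.97%) against 3.38% of all genes. They lay below the controls for 4 (RPL11, RPL35, RPS29 and RPS9; 5.97%) against 5.19%. A gene mean, here and in limma, weighs dim probe sets as much as bright ones. RPLP2 averaged 7.34 over its 3 probe sets and 13.68 on the brightest. No paralog separated the groups. RPL11 illustrates the size of these gaps, with gene means of 13.72, 13.69 and 13.72 on the BRD1 siRNA arrays and 13.79, 13.74 and 13.73 on the controls. After RPS15A the highest limma differences of core genes were 0.21 for RPL37A, 0.15 for RPS20, 0.15 for RPL27A and 0.11 for RPL22, and after RPL4 the lowest were -0.08 for RPL41, RPS29 and RPS25 and -0.07 for RPL7. None passed the test (limma adjusted p from 0.869 to 0.955).

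Of all members RPL22L1 had the largest limma difference, 0.51 ± 0.25 (SE), with an unadjusted limma p of 0.0903 and an adjusted p of 0.869. Its gene mean was 8.99 ± 0.11 (SD, n = 3) with BRD1 siRNA and 8.48 ± 0.56 (SD, n = 3) with control siRNA, where the Dharmacon 2 control, at 9.12, lay above all 3 BRD1 siRNA arrays. Without that control the difference was 0.83 (limma adjusted p = 0.0711). RPL39L differed by -0.10 ± 0.17 (SE, limma adjusted p = 0.960) and RPS27L by 0.09 ± 0.18 (SE, limma adjusted p = 0.961). The RPS27L value is a mean over 2 probe sets. On its bright probe set alone the pair differences were -0.09 (Qiagen), -0.09 (Dharmacon 1) and -0.0032 (Dharmacon 2). RPL7L1 differed by -0.23 ± 0.15 (SE, limma adjusted p = 0.869).

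Set against its core partner, RPL22L1 minus RPL22 was 0.40 higher with BRD1 siRNA than with control siRNA (exact two-sided permutation test, p = 0.4, adjusted over 3 pairs of genes 0.5). RPL39L minus RPL39 differed by -0.14 (exact permutation p = 0.5, adjusted 0.5) and RPS27L minus RPS27 by 0.09 (exact permutation p = 0.5, adjusted 0.5). With 3 arrays against 3 the smallest p such a test can give is 0.1. The SD of RPL22L1 minus RPL22 was 0.58 among the controls and 0.19 among the BRD1 siRNA arrays, so the difference was smaller than the spread of the controls. A test of siRNA by kit, in which the Qiagen kit gives 1 BRD1 siRNA and 1 control array, called no member, and 2 members, RPS4X and RPL27A, had an unadjusted limma p under 0.05 (0.0380 and 0.0468), against 160 of 18239 genes. That Qiagen BRD1 siRNA array is the one whose control probe sets stood apart, and each lone array is assumed to vary like the Dharmacon arrays.

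Genes that work beside the family were counted from lists of known function. Among 18 measured genes of other TOP messages, such as elongation and initiation factors, the BRD1-L median was -0.05, and none was higher and 2 were lower past 1.5-fold, beside 6.21% and 4.22% of all genes. Of 28 measured ribosome biogenesis genes, which make and assemble the ribosomal RNA and proteins, all 28 were below 0 in BRD1-L (all genes 50.0%), with a median of -0.33 against -0.01 for the core genes. In BRD1-L 3 of the 28 had a probe set lower past 1.5-fold, beside 4.22% of all genes, and none had one higher. MRTO4, which helps to assemble the ribosomal stalk, was lowest there, at -1.0. Genes of this list lay mostly below 0 in other comparisons too, 25 of 28 in BRD1-S (median -0.12, all genes 49.7%, against the same untreated array), 23 in the Qiagen (all genes 48.5%) and 24 in the Dharmacon 1 pair (all genes 46.9%). In the Qiagen pair 5 were lower and none higher past 1.5-fold (median -0.20), beside 6.73% and 6.89% of all genes, and NOP14, a small-subunit assembly factor, was at -1.23 on the array that stood apart. The medians in the Dharmacon 1 and Dharmacon 2 pairs were -0.18 and 0.05, with 6 of 28 below 0 in the latter (all genes 59.4%). The controls differed on this list as well. Most of these genes were lower on the Dharmacon 2 control than on the other controls, except NOP58, POLR1A and PES1. DKC1 was at 11.89, 11.98 and 11.47 on the Qiagen, Dharmacon 1 and Dharmacon 2 controls and 11.44 in BRD1-L. NCL was at 13.39, 13.31 and 13.02 there and 13.08 in BRD1-L, but MRTO4 at 9.60, 9.62 and 9.32 and 8.71 in BRD1-L.

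In limma none of these lists held a called gene. RRN3, the factor that recruits RNA polymerase I, had the largest difference among the biogenesis genes, -0.55 ± 0.16 (SE, limma adjusted p = 0.869). It was at 6.95, 7.47 and 7.34 on the BRD1 siRNA arrays and 7.87, 7.95 and 7.58 on the controls, so the groups did not overlap. Of 16 measured p53 targets 7 were higher past 1.5-fold and none was lower in BRD1-L (median 0.26), beside 6.21% and 4.22% of all genes, with GDF15, a secreted stress protein, at 1.74. These 7 were also high on the Dharmacon 2 control. Gene means in BRD1-L, on that control and on the Qiagen control were 5.86, 6.08 and 4.18 for GDF15. They were 9.34, 9.18 and 6.48 for CDKN1A, 7.56, 7.47 and 5.89 for FAS, and 7.86, 7.54 and 6.24 for DDB2. For PHLDA3 they were 8.06, 7.84 and 6.29, for TP53INP1 6.70, 6.42 and 5.03, and for AEN 10.43, 10.07 and 9.35. Among 76 mitochondrial ribosomal protein genes the BRD1-L median was -0.12 and the limma median -0.08. This list leaned below 0 too, with 67 of 76 in BRD1-L (all genes 50.0%) and 60 in BRD1-S (all genes 49.7%). In the Qiagen, Dharmacon 1 and Dharmacon 2 pairs 58, 65 and 43 were below 0 (all genes 48.5%, 46.9% and 59.4%). MRPL36, of the mitochondrial large subunit, was at 10.79 and 10.91 on the Qiagen and Dharmacon 1 controls and 12.21 to 12.38 on the other 7 arrays, which are the same 2 controls that were lowest for RPL22L1 and RPS15A.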

How the data were processed

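The authors deposited log2 intensities, which their methods describe as normalized to the mean of the whole array; the probe summary and background step are not given in the sources used here. No columns were rescaled. Probe sets were named from GEO's platform annotation, and those with several or no symbols were left out. As in the study's methods, 1 probe set past 1.5-fold sufficed to count a gene; other values per gene are means of probe sets. For the siRNA arrays limma 3.58.1 was run under R 4.3.3 (kit as covariate, Benjamini-Hochberg at 0.05), and scipy 1.17.1 gave the permutation tests. The fit was also run on simulated data with known changes and independent noise on each array. Arrays that deviate together, as described below, were not simulated. The number of arrays limits the precision. The members, gene lists and tests were chosen with earlier results of these data known. Named genes are the paralogs and partners, core genes past 1.5-fold, the extremes in limma and in spread, well-known core genes, and the extremes of each list. Same-numbered siRNA and control arrays deviated together (correlations of 0.333, 0.224 and 0.333 across genes, though 0.215 between the Dharmacon 1 BRD1 siRNA array and the Qiagen control), so the pairs were used as a replicate block in an alternative. Other alternatives were centring, quantile normalization, other probe sets, thresholds and controls, and arrays left out. Protein sequences were not analysed here.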

Additional observations from a re-analysis of the deposited data

How the results depend on the processing

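The counts of core genes past 1.5-fold depended on the choice of probe set. With the mean over probe sets they were 0 in BRD1-S, 1 in BRD1-L, 1 in the Qiagen pair and 0 in the Dharmacon 1 pair, and with the brightest probe set alone, an alternative chosen after seeing the data, they were also 0, 1, 1 and 0. At 2-fold they were 0, 0, 3 and 2. In BRD1-S the count was 0 with centred arrays and 4 when the control siRNA arrays, averaged, took the place of the untreated array. Centring each array on its median moved the core medians to -0.0791 in BRD1-L, -0.0714 in the Dharmacon 1 pair and 0.0751 in the Dharmacon 2 pair; the array medians themselves differ by that much. The BRD1-L difference of RPL22L1 lay between 0.98 and 1.62 over all alternatives, and that of RPL39L between 0.59 and 0.84.

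No limma alternative called a core gene, with the pairs as a replicate block included (0 calls, core median -0.0062), and no call changed under it. RPL22L1 had an adjusted limma p of 0.607 with the replicate block. Exact paired sign-flip tests gave 0.40 for RPL22L1 minus RPL22 (p = 0.5), -0.14 for RPL39L minus RPL39 and 0.09 for RPS27L minus RPS27 (p = 0.25, the smallest possible). Leaving out 1 array, the counts stayed at 0, the core median ran from -0.02 to 0.01, RPL22L1 minus RPL22 from 0.21 to 0.74, RPL39L minus RPL39 from -0.32 to -0.03 and RPS27L minus RPS27 from -0.065 to 0.28. In limma RPL22L1 then ran from 0.24 to 0.83, RPL39L from -0.27 to 0.0701 and RPS27L from -0.0534 to 0.26. RPS27L minus RPS27 turned to -0.06 on the brightest probe set. Without the Dharmacon 2 control, 33 of 18239 genes were called, none of them among the 77 members. So few calls say little about a family of this size. The cause of these shifts was not tested.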
